A study of Mus musculus with 21 samples.

Results

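The genes described here are 8 transcription factors of osteoblast commitment and maturation, Runx2, Sp7, Dlx3, Dlx5, Dlx6, Msx2, Atf4 and Creb3l1, chosen by name from the 26852 genes of the deposited table. The rule names the genes and uses no measured value, although it was written with earlier results of these data known. All 8 were in the table, and 7 of them were among the 12976 genes abundant enough to be tested; Msx2 was not.

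The 21 libraries came from Nes-low mesenchymal cells sorted from the bone marrow of Nestin+ NSG mice, an immunodeficient strain, which entered the experiment at 8 to 12 weeks of age and were not conditioned. The 3 ctrl libraries came from unengrafted mice. The others came from mice carrying HL60 or ML1, human AML cell lines that release sLP-mCherry, a lipid-permeable protein taken up by neighbouring cells. At the early time point, cells were sorted into those with the marker (early ch+) and those without it (early ch-), whereas the late cells were taken without a marker gate, with 3 libraries for each line in each group. The treatment entry of the ML1 late libraries reads unengrafted, against their titles and time point, and they are treated here as late. The study took ch- cells from the same marrow as ch+ cells, but the labels do not say which libraries share a mouse, and the 3 ctrl libraries serve every comparison with ctrl. The extraction entry of the labels names CD31+ endothelial cells, against the stated source, and Pecam1, the gene of CD31, had values of 4.53 to 6.21 over the 21 libraries. HL60 and ML1 stand for 1 line each, so a difference between them is a difference between lines and not between kinds of leukemia.

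RUNX2 commits mesenchymal progenitors to the osteoblast lineage and binds DNA with its partner CBFB, and SP7, also called osterix, acts after it and is needed for bone formation. DLX3, DLX5, DLX6 and MSX2 are homeodomain proteins, of which the DLX proteins activate osteoblast genes and MSX2 can repress them. ATF4 drives amino acid supply and osteocalcin transcription, and CREB3L1, also called OASIS, is released from the endoplasmic reticulum membrane and activates the collagen gene Col1a1.

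In the late libraries the regulators split into a group that fell and a group that was not called. Sp7, Dlx3, Creb3l1 and Runx2 were lower than in ctrl, 4 of the 7 tested. Beside this, 21.5% of all tested genes were called in either direction and 11.4% were called lower. When libraries were rescaled to their totals, Runx2 turned to 0.19, beside a median of 0.71 for all tested genes. Dlx5, Dlx6 and Atf4 were not called on the deposited scale. The median difference of the members was -0.51 on the log2 scale, beside 0.02 for all tested genes. In bulk samples, fewer cells of a type and less RNA per cell cannot be told apart.

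Sp7 had regularized log2 values of 11.39, 11.50 and 11.49 in ctrl. The values were 10.09, 9.97 and 9.97 in HL60 late and 8.38, 7.55 and 8.09 in ML1 late. The 3 groups did not overlap, with ML1 late the lowest. Such separation was common, as 26.3% of all tested genes did not overlap between HL60 late and ctrl, 33.8% between ML1 late and ctrl and 21.8% between the late groups. Sp7 was 2.73-fold lower in HL60 late than in ctrl (log2 difference -1.45, 95% interval -1.82 to -1.08) and 11-fold lower in ML1 late (-3.46, -3.83 to -3.09).

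Dlx3, a homeobox gene active in maturing osteoblasts, had values of 10.38, 10.36 and 10.70 in ctrl. It had 9.001, 8.83 and 8.29 in HL60 late and 6.46, 5.61 and 7.48 in ML1 late. Every ML1 late library was below every HL60 late library, and the ML1 late libraries were the most spread. The decrease was 3.41-fold in HL60 late (log2 difference -1.77, 95% interval -2.36 to -1.19) and 15.6-fold in ML1 late (-3.96, -4.55 to -3.38).

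Creb3l1, whose product turns on collagen transcription, had values of 12.44, 12.29 and 12.59 in ctrl. It had 11.28, 11.40 and 10.89 in HL60 late and 11.04, 10.47 and 11.22 in ML1 late. Both late groups lay below ctrl and overlapped each other. Creb3l1 was 2.38-fold lower in HL60 late (log2 difference -1.25, 95% interval -1.60 to -0.91) and 2.89-fold lower in ML1 late (-1.53, -1.88 to -1.19).

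Runx2, the regulator at the start of the lineage, moved least among the 4 that were called. Its values were 11.87, 11.71 and 12.06 in ctrl, 11.71, 11.52 and 11.49 in HL60 late and 11.30, 11.18 and 11.02 in ML1 late. The highest HL60 late library lay just below the lowest ctrl library, and the ML1 late libraries were below all others. Runx2 was 1.64-fold lower in ML1 late (log2 difference -0.71, 95% interval -0.98 to -0.44), and in HL60 late its difference of -0.30 was not called (adjusted p = 0.165, limma). This decrease depended on the scaling. Bringing all libraries to a common total added 0.69 to every difference between late and ctrl and moved the median of all tested genes to 0.71, and Runx2 then turned to 0.19 over both lines, 0.27 in HL60 late and 0.11 in ML1 late. Relative to that median, the differences over both lines were -0.53 for Runx2, -2.47 for Sp7, -2.89 for Dlx3 and -1.41 for Creb3l1.

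By line, 3 of 7 tested members were lower in HL60 late (7.24% of all tested genes were called lower) and 4 of 7 in ML1 late (12.1%), the 4th being Runx2, which turned under rescaling. The p values measure the spread between libraries. The direct comparison of the late groups tested whether the lines differed, since both share the ctrl libraries. Sp7 (log2 difference 2.01, 95% interval 1.64 to 2.38, adjusted p = 3.56e-09) and Dlx3 (2.19, 1.61 to 2.78, adjusted p = 3.33e-06) were higher in HL60 late than in ML1 late, where 3.16% of all tested genes were called higher. The other members were not called, with Runx2 at 0.41 (adjusted p = 0.110), Dlx5 at 0.47 (adjusted p = 0.196) and Creb3l1 at 0.28 (adjusted p = 0.648) by limma.

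**Figure D1:**
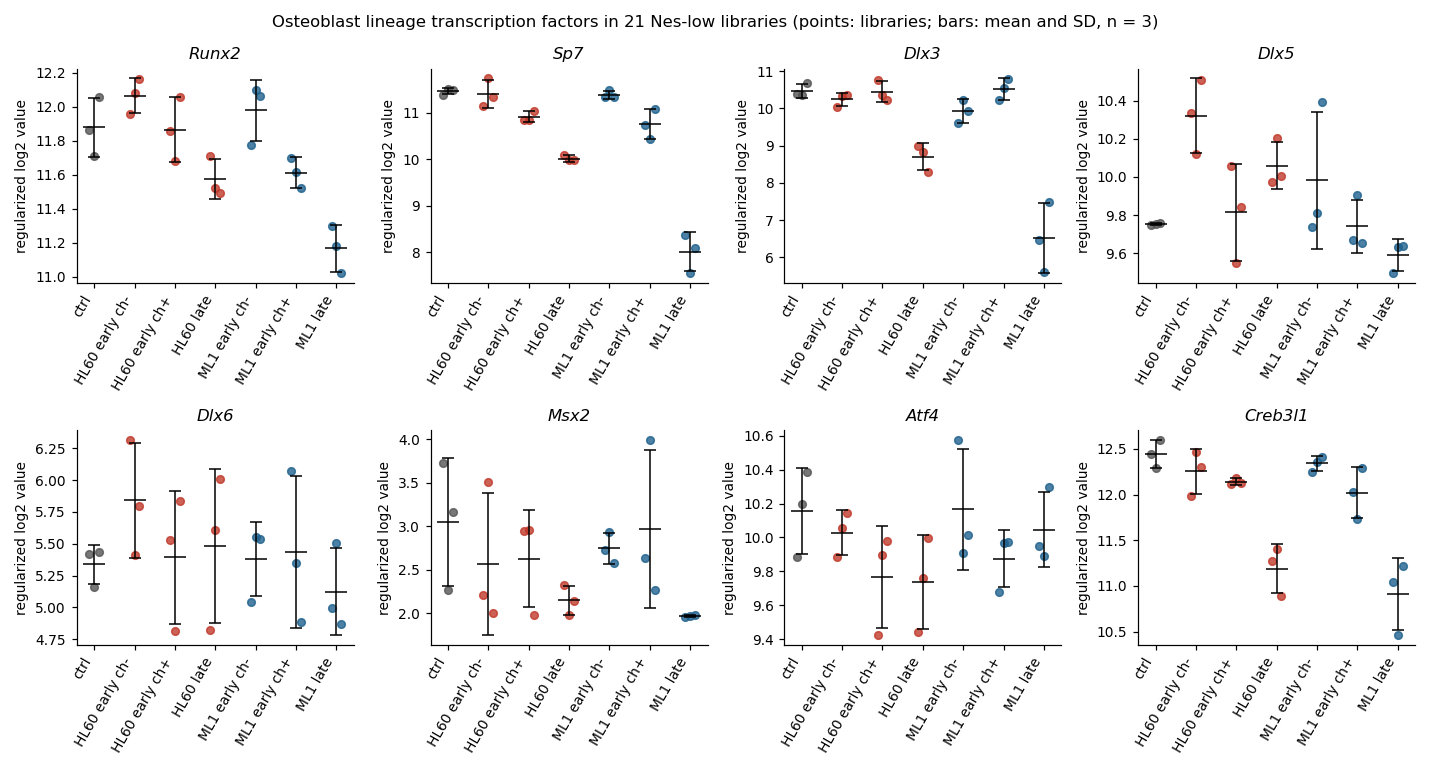
Regularized log2 values of the 8 genes in each of the 21 libraries, by group, with the mean and SD of 3 libraries. Sp7 and Dlx3 are lowest in ML1 late, Creb3l1 is low in both late groups, and the lower Runx2 values in late turn to 0.19 above ctrl when libraries are rescaled to their totals. The median of all tested genes is then 0.71.

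The late decrease was also present against the early groups. Runx2, Sp7, Dlx3 and Creb3l1 were called lower in late than in early ch+, 4 of 7 (10.9% of all tested genes were called lower), with differences of -0.37, -1.82, -2.87 and -1.03 on the log2 scale. Under rescaling to library totals Runx2 turned to 0.25 and was called higher (adjusted p = 0.0705, limma), beside a median of 0.63 for all tested genes. The same 4 were lower in late than in early ch- (12.3% called lower), with differences of -0.65, -2.39, -2.48 and -1.25, and Runx2 turned to 0.12 under rescaling. Sp7, Dlx3 and Creb3l1 were thus below both the ctrl and the early groups on either scale.

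Dlx5, Dlx6 and Atf4, whose products activate osteoblast genes, were not called in late on the deposited scale. Over the 21 libraries Dlx5 ran from 9.50 to 10.51, Dlx6 from 4.82 to 6.31 and Atf4 from 9.43 to 10.57. Over both lines, late minus ctrl gave 0.07 for Dlx5 (95% interval -0.28 to 0.43), -0.04 for Dlx6 (-0.75 to 0.68) and -0.26 for Atf4 (-0.62 to 0.10). A p that misses the threshold does not show that the values were alike, but the intervals leave out decreases of the size seen for Sp7, Dlx3 and Creb3l1. By line, Dlx5 was at 0.31 in HL60 late, with all 3 libraries above ctrl, and at -0.16 in ML1 late, with all 3 below ctrl, and neither was called (26.3% and 33.8% of all tested genes did not overlap). Atf4 was at -0.42 in HL60 late, at an unadjusted p under 0.05 by limma and not called, and at -0.11 in ML1 late. These members also depended on the scaling. Under rescaling to library totals, most of all tested genes were called higher in late than in ctrl. Dlx5 (0.77, adjusted p = 0.00107) and Atf4 (0.43, adjusted p = 0.0553) were among them by limma, and Dlx6 was not (0.66, adjusted p = 0.124). Relative to the 0.71 median of all tested genes on that scale, they differed by 0.05, -0.28 and -0.06. Dlx5 and Dlx6, a neighbouring pair of homeobox genes on chromosome 6 (chr6:6877805-6882085 and chr6:6863334-6868568, 9.24 kb apart), had r = 0.537 with each other over the 21 libraries. This r was 0.362 after the group means were removed, and Dlx5 had r = 0.548 with Runx2 over the 21 libraries. Dlx6 is overlapped over its whole 5235 bases by the antisense transcript Dlx6os1, and whether its reads come from that transcript was not tested. The study's methods describe the reads as strand-specific, which cannot be checked on the deposited values. Msx2 was near the floor, from 1.96 to 3.99, and without the filter its late difference was -0.995 (95% interval -1.78 to -0.21, adjusted p = 0.139).

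The order of the members by level differed between groups. Per kb of exon on the log2 scale, the ctrl levels ran from Creb3l1 (11.06) through Sp7 (9.70), Dlx3 (9.10), Atf4 (8.92), Runx2 (8.74) and Dlx5 (8.57) to Dlx6 (4.09) and Msx2 (1.34). In ML1 late, the levels per kb ran from Creb3l1 (9.53) through Atf4 (8.81), Dlx5 (8.41), Runx2 (8.03), Sp7 (6.24) and Dlx3 (5.13) to Dlx6 (3.88) and Msx2 (0.26). In HL60 late, the levels per kb were 8.43 for Runx2, 8.25 for Sp7 and 7.33 for Dlx3. Sp7 and Dlx3 were thus above Runx2 in ctrl and below it in both late groups, though Dlx3 (8.70) was already below Runx2 (8.88) in early ch-. In ctrl the levels of Dlx3, Atf4, Runx2 and Dlx5 lay close together, and neighbours among them were not tested against each other.

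At the early time point the calls depended on the fit. Pooled over the lines, 0 of 7 tested members were called by limma in early ch+ against ctrl (6.17% of all tested genes were called), with 1 at an unadjusted p under 0.05 (Creb3l1, -0.36). Likewise 0 were called in early ch- against ctrl (1.92%), with 1 at an unadjusted p under 0.05 (Dlx5, 0.40), and 0 in early ch+ against early ch- (6.26%), with 2 (Runx2, -0.28, and Dlx5, -0.37). In this pooled fit the spread of Sp7 includes the distance between the HL60 and ML1 late libraries. With the lines as separate groups in the fit, 1 member was called in early ch+ against ctrl (Sp7, -0.63; 8.18% of all tested genes were called in this fit) and 3 in early ch+ against early ch- (Sp7, -0.57, Dlx5, -0.37, and Runx2, -0.28; 7.72%).

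With the lines apart, Sp7 was lower in ch+ cells. Its early ch+ values were 10.84, 10.85 and 11.04 in HL60 and 10.73, 10.43 and 11.09 in ML1. Its early ch- values were 11.15, 11.74 and 11.33 in HL60 and 11.34, 11.49 and 11.33 in ML1. All 6 ch+ libraries were below all 3 ctrl and all 6 ch- libraries, where 8.06% of all tested genes did not overlap between early ch+ and ctrl (6.17% called) and 3.01% between early ch+ and early ch- (6.26% called). Against ctrl, Sp7 was called lower in HL60 early ch+ (log2 difference -0.55, 95% interval -0.92 to -0.18, adjusted p = 0.0938; 2.46% of all tested genes were called lower) and in ML1 early ch+ (-0.71, -1.08 to -0.34, adjusted p = 0.0167; 3.22%). The HL60 call was lost in 14 of 21 fits that left out 1 library and under rescaling to library totals (-0.45), and the ML1 call was lost without ML1 early ch+ library 539 (-0.55). Other members were not called, with Creb3l1 (-0.42) at an unadjusted p under 0.05 in ML1 early ch+. All 3 libraries lay below ctrl for Creb3l1 in HL60 early ch+ (-0.30, as for 8.6% of all tested genes). The same held for Runx2 in ML1 early ch+ (-0.27, as for 8.48%).

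Within a line, Sp7 was lower in ch+ than in ch- cells of ML1 (-0.64, 95% interval -1.01 to -0.27, adjusted p = 0.0496; 1.91% of all tested genes were called lower). Runx2 (-0.37, with all 3 ch+ below all 3 ch- libraries, as for 8.55% of all tested genes) and Dlx3 (0.60) were also at an unadjusted p under 0.05 there and were not called. The Sp7 call was lost without ML1 early ch+ library 538 (-0.63) or 539 (-0.48), without ML1 early ch- library 543 (-0.66) or 544 (-0.58), and under rescaling to library totals (-0.45). In HL60, 0 members were called by limma between ch+ and ch- (3.92%), with 2 at an unadjusted p under 0.05, Sp7 (-0.49, adjusted p = 0.184) and Dlx5 (-0.51, adjusted p = 0.140). The label difference itself was not shown to depend on the line, with 0 members called (0.00771% of all tested genes) and 0 at an unadjusted p under 0.05 by limma, and a Sp7 value of 0.14 (95% interval -0.38 to 0.66). Direct comparisons of the lines gave 0 called members and 0 at an unadjusted p under 0.05 by limma in early ch+ (0.0154% of all tested genes) and in early ch- (0.0539%).

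In ch- cells no tested regulator was called against ctrl. By limma 0 members were called in HL60 early ch- (1.57%), with 1 at an unadjusted p under 0.05 (Dlx5, 0.57, adjusted p = 0.133), and 0 in ML1 early ch- (2.34%), with 0 at an unadjusted p under 0.05. Dlx3, which fell in late, was at -0.39 in early ch- over both lines and at -0.55 in ML1 early ch-, where all 3 libraries lay below ctrl (14.7% of all tested genes did not overlap there, and 2.34% were called). In HL60 early ch- all 3 libraries lay above ctrl for Dlx5 (14.4% and 1.57%). In early ch+ the pooled difference of Dlx3 from ctrl was 0.01.

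**Figure D2:**
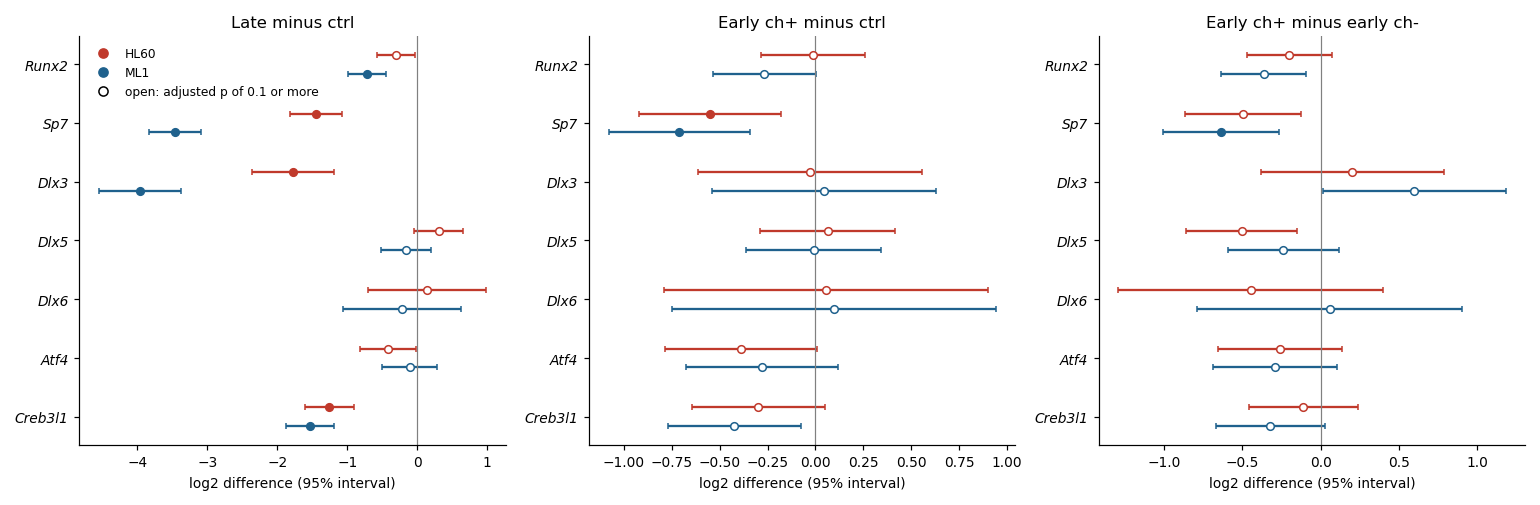
Log2 differences of the 7 tested genes with 95% intervals, for HL60 and ML1, between late and ctrl, early ch+ and ctrl, and early ch+ and early ch- (filled points: adjusted p under 0.1). Sp7 lies below 0 in all 6 rows, and the ML1 late value of Runx2 (-0.71) turns to 0.11 when libraries are rescaled to their totals. That rescaling adds 0.82 to every difference between ML1 late and ctrl.

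The products that mark osteoblast maturation fell in late together with Sp7, Dlx3 and Creb3l1. Of 19 listed osteoblast products and targets, all tested, 15 were lower and 3 higher in late than in ctrl. Of all tested genes, 11.4% were called lower and 10.2% higher. The median of the products was -1.93, beside 0.02 for all tested genes. Bglap, which encodes osteocalcin, was 4.97-fold lower in HL60 late and 49.5-fold lower in ML1 late, and the collagen gene Col1a1 was 3.19-fold and 18.1-fold lower. After rescaling to library totals, 14 of the 15 stayed below 0, the exception being Vdr. Over the 21 libraries, the genes most like Sp7 were the collagen genes Col11a2 (r = 0.988), which is on the chondrocyte marker list and not among the products, Col1a2 (0.986) and Col1a1 (0.985), and after the group means were removed their r was 0.680, 0.650 and 0.658.

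A small set of products went the other way. Tnfsf11, which encodes the osteoclast factor RANKL, was 6.04-fold higher in HL60 late and 5.33-fold higher in ML1 late than in ctrl. Mmp13, a collagenase and a RUNX2 target, was 2.94-fold and 2.17-fold higher. Spp1, which encodes osteopontin, was 1.81-fold higher in HL60 late and had an uncalled log2 difference of 0.24 in ML1 late. Cdh11, an osteoblast cadherin, had a difference of 0.18 over both lines and was not called. Between the lines, 15 of the 19 products were higher in HL60 late than in ML1 late and 0 were lower. Of all tested genes, 3.16% were called higher there and 0.932% lower. The median of the products was 1.89, beside 0.0047 for all tested genes.

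**Figure D3:**
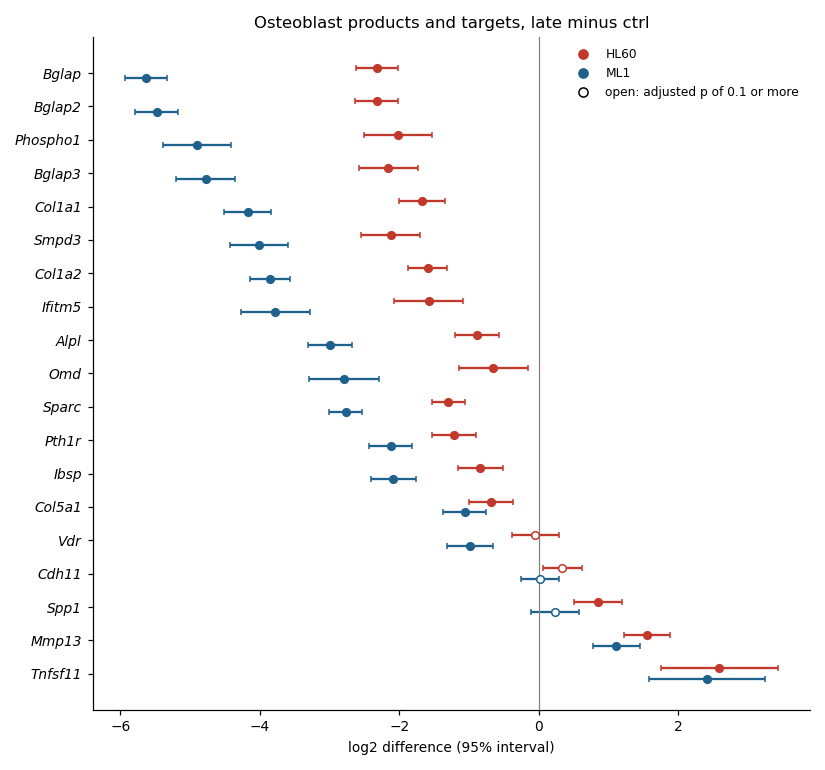
Log2 differences between late and ctrl, with 95% intervals, for the 19 osteoblast products and targets in HL60 and ML1, sorted by the ML1 value (filled points: adjusted p under 0.1). For all 19 genes the ML1 value is below the HL60 value, and Tnfsf11 and Mmp13 are called higher in both lines.

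In early ch+ cells the pooled calls among these products were few. In early ch+ against ctrl, 1 of 19 was lower (Pth1r, the receptor for parathyroid hormone, -0.63) and 0 were higher, beside 6.17% of all tested genes called, and 2 were lower than in early ch- (Spp1, -0.65, and Pth1r, -0.59; 6.26%). In early ch- against ctrl (1.92%), limma called 0 of 19, with 1 (Tnfsf11) at an unadjusted p under 0.05. With the lines apart, 5 were lower and 1 higher in HL60 early ch+ than in ctrl (2.46% of all tested genes were called lower), and 5 lower and 0 higher in ML1 early ch+ (3.22%).

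Cofactors and antagonists of the lineage moved both ways in late. Of 21 partners and other activators, 6 were lower and 5 higher than in ctrl, where 21.5% of all tested genes were called. By line, 4 were lower and 1 higher in HL60 late (7.24% and 6.46% of all tested genes). In ML1 late 7 were lower and 4 higher (12.1% and 9.89%), and 4 were lower and 1 higher in both. Compared directly, Mef2c, Lef1 and Vdr were higher in HL60 late than in ML1 late (3.16%), and Fosl1 was lower (0.932%). Pooled over the lines, Cbfb, the partner of all RUNX proteins, differed from ctrl by -0.88 and the MADS-box factor Mef2c by -2.22. Prrx1, a factor of early mesenchyme, was higher by 0.90. Of 21 inhibitors of RUNX2 or of osteoblast maturation, 10 were higher and 5 lower in the pooled fit. By line these counts were 7 and 3 in HL60 late and 8 and 6 in ML1 late, with 5 and 3 in both. Twist1, Id1, Id2 and Id3 were higher in HL60 late than in ML1 late, and Nr2f1 was lower. In the pooled fit, Hey1, a Notch target, was higher by 2.40 and Pparg, the regulator of fat cell formation, by 1.97. Sox9, the cartilage regulator, differed by -2.24 and Twist1 by -1.37. Rescaling to library totals adds 0.69 to every difference, so only decreases smaller than that turn positive. These were Fosl2 and Vdr among the 6 lower activators and 0 of the 5 lower inhibitors. Before rescaling, Vdr was at -0.05 in HL60 late and at -0.99 in ML1 late against ctrl.

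Other lists covered the stages around the osteoblast. Among 25 paralogs of the members, 18 were tested, 3 were higher and 2 lower, a share not far from the 21.5% of all tested genes, and Runx1, the RUNX gene of blood formation, was higher by 1.36. Of 10 osteocyte genes 8 were tested and 6 were lower, among them Phex (-1.40) and Ackr3 (-1.78), and after rescaling Cd44 and Irx5 turned positive. By line, 3 were lower in HL60 late (7.24% of all tested genes) and 7 in ML1 late (12.1%). Dmp1, Phex and Ptprz1 were higher in HL60 late than in ML1 late (3.16%). In early ch+ Ackr3 was called higher than in ctrl (3.41%). Sost and Fgf23, which mark mature osteocytes, were too low to test. Of 9 hypertrophic chondrocyte genes, 8 were tested, 5 were lower and 2 (Mmp13 and Spp1) higher. Mmp13, Spp1, Ibsp and Alpl are also among the products and Mef2c among the activators.

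The targets of the stress-related members gave mixed counts. Of 24 ATF4 targets, 21 were tested, 7 were lower and 2 higher, where 21.5% of all tested genes were called. The median was -0.24, and the serine synthesis gene Psat1 differed by -1.64. Of 16 secretory and unfolded protein response targets of the CREB3 family and XBP1, 3 were lower, 1 was higher and the median was 0.10, a share of calls close to the 21.5% of all tested genes. The lower ones were the COPII coat genes Sec23a (-0.94) and Sec24d (-0.76) and the translocon gene Sec61b (-0.63), and the higher one was the chaperone gene Hspa5 (0.63). After rescaling, Nupr1 among the ATF4 targets and Sec61b turned positive.

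Markers of cell types moved with the late decrease of the regulators. Of all tested genes, 11.4% were called lower and 10.2% higher in late than in ctrl. Of 9 osteoblast markers, 7 were lower and 1 higher. All 9 are also on the list of products or of osteocyte genes, so this count is not separate from those. Their summed log2 level was 20.45 in ctrl, 20.26 in early ch-, 19.93 in early ch+, 18.85 in HL60 late and 16.60 in ML1 late, with Col1a1 the most abundant. Of 15 chondrocyte markers 14 were tested and all 14 were lower, with sums of 17.41, 16.84, 15.82, 14.88 and 12.74 in the same order and Col11a1 the most abundant. Of 12 markers of Nes-low mesenchymal cells, 9 were higher and 1, Pdgfra, was lower (positive after rescaling), with sums of 15.85, 16.24, 16.64, 16.97 and 16.99 and Cxcl12 the most abundant. Thus the sorted cells had more of the stromal markers, among them Lepr (1.97) and Pdgfrb (2.00), while osteoblast and cartilage markers fell, and Nes itself differed by -0.09 and was measured in every library (6.61 to 7.87). Between the lines, 9 of 9 osteoblast markers and 9 of 14 tested chondrocyte markers were higher in HL60 late than in ML1 late. Their medians were 2.11 and 2.04 and 0 were lower, where 3.16% of all tested genes were called higher. The part of these cell types in the regulators' decrease was not tested.

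The remaining marker lists had smaller or less uniform differences in late, where 11.4% of all tested genes were called lower and 10.2% higher. In ML1 late these shares were 12.1% and 9.89%. Of 10 smooth muscle and pericyte markers, 5 were lower and 1 higher, and the sum was 14.72 in ctrl and 14.02 in late, a gap about as large as the 0.69 that rescaling adds, with Rgs5 the most abundant and turned positive by it. Endothelial markers (6 of 9 tested) summed to 8.29 in ctrl, 8.43 in HL60 late and 8.07 in ML1 late, with 0 called by limma in HL60 late (0 at an unadjusted p under 0.05) and 3 lower in ML1 late. Osteoclast markers (4 tested) summed to 9.04 in ctrl, 8.93 in HL60 late and 9.67 in ML1 late, with 0 called by limma in HL60 late (1 at an unadjusted p under 0.05) and 1 higher and 3 lower in ML1 late. Compared directly between the lines, 1 osteoclast marker (Mmp9) was lower in HL60 late than in ML1 late, and 0 endothelial markers were called by limma, with 2 at an unadjusted p under 0.05. Blood cell markers (9 of 11 tested, 2 lower) summed to 6.62 to 9.04 in the ctrl libraries and 6.41 to 6.93 in the late libraries, so that the groups overlapped. Red cell (9 tested, 4 lower), skeletal muscle (5 tested, 1 lower) and proliferation markers (7 tested, 2 lower) summed to 8.92, 6.26 and 10.02 in ctrl and to 6.99, 5.38 and 9.21 in late. The blood marker Ptprc lay between 2.36 and 2.61 in every ctrl and late library, close to the floor, and the endothelial marker Pecam1 between 4.53 and 6.002.

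In early ch+ cells other markers moved beside Sp7. Of all tested genes, 2.75% were called lower and 3.41% higher in early ch+ than in ctrl. Between early ch+ and early ch- the shares were 2.68% lower and 3.58% higher. In early ch- against ctrl, 1.13% were called higher. Chondrocyte markers (12 of 14 tested lower than in ctrl and 12 lower than in early ch-) and smooth muscle markers (9 of 10 lower in each comparison) were lower, with a median of -3.74 and -2.02 against ctrl. Blood cell markers were higher than in ctrl in early ch+ (9 of 9 tested) and in early ch- (8 of 9), with sums of 10.77 in each and 7.44 in ctrl. Red cell markers were higher in early ch+ (8 of 9 tested, median 3.60, sum 12.99) and in early ch- (7 of 9, sum 12.88) than in ctrl (sum 8.92). In early ch+ all 5 tested skeletal muscle markers and 8 of 12 Nes-low mesenchymal markers were also higher than in ctrl. In early ch- against ctrl, limma called 0 muscle markers, with 4 at an unadjusted p under 0.05 and a median of 1.60. It called 1 Nes-low marker there, with 7 at an unadjusted p under 0.05. Between early ch+ and early ch-, 0 muscle markers were called by limma (median 0.71) and 1 Nes-low marker, Cxcl12, was higher. Markers of blood and red cells were thus high in both early groups, whereas the cartilage and smooth muscle decreases were those called in early ch+. The sort had depleted blood cells with beads and stained the rest for CD45 and Ter119, which mark blood and red cells. The part of these markers in the Sp7 difference was not tested.

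The patterns of the members among themselves were described over the 21 libraries. Sp7 and Dlx3 had r = 0.926, Sp7 and Creb3l1 0.912, Dlx3 and Creb3l1 0.891 and Runx2 and Sp7 0.875. After the group means were removed these became 0.461, 0.753, 0.748 and 0.184, so that the likeness of Runx2 to Sp7 lay mostly between groups. The genes most like Dlx3 were Dcn (0.965), Entpd3 (0.964) and Bglap2 (0.964), those most like Runx2 were Aldh1l2 (0.915), Tmem119 (0.906) and Wif1 (0.905), and those most like Creb3l1 were Hdlbp (0.954), Adgrd1 (0.953) and AU021092 (0.948). For the other tested members the highest values were 0.745 for Dlx5 (Cd34, then Ndnf and AI480526), 0.676 for Dlx6 (Smo, then Clta and Map3k13) and 0.775 for Atf4 (Mau2, then Zfp451 and Tedc1). After the group means were removed, r was 0.464 for Dlx5 and Cd34, 0.734 for Dlx6 and Smo and 0.751 for Atf4 and Mau2.

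Promoter sequence was read for the letters ACCACA, the core that RUNX proteins bind, in RefSeq promoters of 300 bases (250 before and 50 after the start) on GRCm38.p6. The letters or their reverse complement were in 16.8% of all 32851 promoters. Of the 19 products, 15 had a promoter entry and 4 of their 21 promoters held the letters (Bglap, Mmp13, Sparc and Spp1), which is 19.0% and near the share of all promoters. Entries were available for Runx2, Msx2 and Atf4 among the members. Windows are shown for the Runx2 promoter and for 3 products that moved in opposite directions in late, Bglap down and Mmp13 and Spp1 up, with the RUNX letters in capitals. They lie at chr17:44814672-44814737 (minus strand) for Runx2, chr3:88384563-88384628 (minus) for Bglap, chr9:7272366-7272431 (plus) for Mmp13 and chr5:104434953-104435018 (plus) for Spp1.
Runx2: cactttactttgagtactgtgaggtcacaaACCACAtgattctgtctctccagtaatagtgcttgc
Bglap: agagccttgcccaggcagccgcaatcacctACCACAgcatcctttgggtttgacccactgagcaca
Mmp13: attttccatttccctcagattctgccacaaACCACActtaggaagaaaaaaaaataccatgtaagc
Spp1: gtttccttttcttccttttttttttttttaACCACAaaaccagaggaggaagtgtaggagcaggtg
The match shown lay 80 bases before the start in Runx2, 132 in Bglap, 118 in Mmp13 and 128 in Spp1. The Runx2 promoter held 2 more matches, 24 and 32 bases after the start, which are not shown. A match of letters is a description, and binding was not measured. The homeodomain letters TAATTA were in 5.29% of all promoters, in those of 3 products (Bglap3, Pth1r and Spp1) and, among the members, in that of Msx2.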

How the data were processed

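RNA-seq libraries of sorted Nes-low mesenchymal cells (21) were used. The submitters' notes name STAR 2.5.1b, RSEM 1.2.29 and DESeq2 1.10.1 on mm10. The values are log2, normalized and regularized per gene, as deposited by the authors, and run from -2.33 to 22.44. The study's methods name a log10 transformation, but a highest value of 22.44 is too large for log10 of reads, so log2 was taken, and every fold rests on that base. The whole reads cannot be recovered from them, so depth is unknown, precision rests on the replicates and no count test was run. Ensembl genes were mapped to mouse symbols. A gene was tested if its mean reached 3.32, the log2 of 10 normalized counts, which held for 12976 of 26852. All libraries entered 1 fit with 4 groups, or with 7 groups where the lines were apart, in limma 3.58.1 (R 4.3.3) with a variance trend, two-sided. The p values were adjusted by Benjamini-Hochberg per comparison, and a gene counts as called below 0.1. Lines were compared directly and by an interaction. Each library has a number of its own, so no pairing was fitted, although the study took ch+ and ch- cells from the same marrow. Members and lists were chosen with earlier results of these data known, and 1 listed gene is not reported here. Named are all members, called or defining genes of each list, its most abundant gene, and for each tested member the 3 genes with the highest Pearson r. Levels per kb use summed exon length. Alternatives covered filters, scaling, variance settings, thresholds, groups in the fit, lines and each library left out. Figures and positions were made in Python 3.11.15 with matplotlib 3.10.9.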

Additional observations from a re-analysis of the deposited data

Results flagged for a closer look

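A difference between groups was found for Sp7 and Dlx3 between the lines at the late time point. Sp7 was higher in HL60 late than in ML1 late by 2.006 on the log2 scale (adjusted p = 3.56e-09, limma), and every HL60 late library was above every ML1 late library. Dlx3 was higher by 2.193 (adjusted p = 3.33e-06, limma), again in every library. In this comparison 12.1% of all tested genes had every HL60 late library above every ML1 late library, and 3.16% were called higher. The ML1 late libraries are those whose treatment entry contradicts their titles.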

How the results depend on the processing

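Over 32 alternatives each, Sp7 stayed lower in HL60 late (-1.49 to -0.88) and ML1 late (-3.64 to -2.64) than in ctrl, as did Dlx3 (-1.92 to -1.20 and -4.44 to -3.15) and Creb3l1 (-1.36 to -0.68 and -1.69 to -0.72), and HL60 late stayed above ML1 late for Sp7 (1.76 to 2.19) and Dlx3 (1.74 to 2.67). The count of 4 members lower in late than in ctrl was 4 in every fit without 1 library. Without the ML1 libraries, whose late labels disagree, it was 3 (Sp7, Dlx3 and Creb3l1). Alternatives for the lines against ctrl, for ch+ against ch- within a line and for the interaction, and the rescaling that leaves out the rRNA gene, were chosen after seeing the data. Rescaling to library totals called 8302 genes between late and ctrl, 7786 of them higher, where the deposited scale called 2795, 1321 of them higher. It turned Runx2 to 0.19 and Atf4 to 0.43 in late against ctrl, Runx2 to 0.25 against early ch+, Runx2 to 0.12, Dlx5 to 0.44 and Atf4 to 0.56 against early ch-, and Runx2 to 0.11, Dlx5 to 0.66 and Atf4 to 0.71 in ML1 late against ctrl. Values that were called on neither scale changed sign too, among them Dlx6 in late against ctrl (-0.04 to 0.66) and against early ch- (-0.31 to 0.46). With totals summed without the rRNA gene, Runx2 turned to 0.0049 in late against ctrl and to 0.12 against early ch+, Atf4 to 0.32 against early ch-, and Dlx5 to 0.43 and Atf4 to 0.48 in ML1 late against ctrl. The cause was not tested. The pooled early ch+ count against ctrl went from 0 to 1 (Sp7) with 7 groups or 2 groups in the fit, or with HL60 or ML1 alone. For early ch+ against early ch- it went from 0 to 3 (Runx2, Sp7 and Dlx5) with 7 groups and to 1 (Sp7) with 2 groups or either line alone, and ranged from 0 to 1 without 1 library (Dlx5, without ML1 early ch- 543 or 544). The HL60 early ch+ count against ctrl (1, Sp7) went to 0 with no filter, either rescaling, no trend, array weights, an adjusted p under 0.05 or a minimum difference of 1, and ranged from 0 to 1 without 1 library (Sp7 -0.62 to -0.51). The ML1 early ch+ count against ctrl (1, Sp7) went to 2 with quantile normalization (Sp7 and Creb3l1) and to 0 with a minimum difference of 1, and ranged from 0 without ML1 early ch+ 539 (Sp7 -0.55) to 2 without 541 (Creb3l1 -0.56). Within HL60, the ch+ against ch- count went from 0 to 1 with quantile normalization (Sp7) and ranged from 0 to 1 without 1 library (Dlx5, without HL60 early ch+ 523 or ML1 early ch- 546). Within ML1 it went from 1 (Sp7) to 2 with quantile normalization (Runx2 and Sp7) and to 0 with no filter, rescaling to library totals, no trend, array weights or a minimum difference of 1, and ranged from 0 to 1 without 1 library (Sp7 -0.80 to -0.48). The HL60 early ch- count against ctrl ranged from 0 to 1 without 1 library (Dlx5, without ML1 early ch- 546). The count between HL60 late and ML1 late went from 2 to 4 (Runx2, Sp7, Dlx3 and Dlx5) with array weights or 2 groups in the fit. Among single members, 4038 values kept their side of the threshold, although uncalled values that changed sign, such as those of Dlx6, are among them. Another 41 gained and 40 lost a call and 14 reversed, and of the counts 542 stayed within 1.5 times and 51 did not. No paired analysis was run, as the labels do not say which libraries share a mouse. The study took ch+ and ch- cells from the same marrow. The study states a typical read yield, but the depth of each library is unknown. Low genes such as Msx2 are drawn toward their mean by the regularization.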
